A study of Mus musculus with 8 samples.

Results

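The genes described here encode the subunits of mitochondrial respiratory chain complexes I to IV, read from an expression array of belly skin. A probe set, the group of oligonucleotides that reads a transcript, was taken where the array annotation gave it exactly 1 gene symbol and that symbol began with Nduf, Uqcr, Cox4, Cox5, Cox6, Cox7 or Cox8 or was Sdha, Sdhb, Sdhc or Sdhd. This gave 148 probe sets for 73 genes, of 18193 genes with a probe set of a single symbol. Of the 73 genes, 34 belong to complex I, 4 to complex II, 8 to complex III and 18 to complex IV, in which Ndufa4 was counted. The prefixes also took in 8 assembly factors of complex I (Ndufaf1 to Ndufaf8), which are not subunits, and Ndufa4l2, a paralog of Ndufa4. Cox7b had no such probe set and was not analysed here.

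The study compared 4 mice that carry a transgene for human hurpin (SERPINB13), a serpin that blocks cathepsin L, a cysteine protease, with 3 wildtype mice. Transgenic animals were the females 7 and 84 and the males 11 and 17. Wildtype animals were the males 26 and 28 and the female 29. All animals were 8 months old and all RNA was total RNA of belly skin. The promoter of the transgene and the mouse strain are not given in the sources used here. Wildtype 29 was measured on 2 arrays, which were averaged, so that 8 arrays gave 7 animals.

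Levels are log2 of the deposited signal intensity plus 21.8, and a difference is transgenic minus wildtype on that scale, which understates the change of dim probe sets. The 3' to 5' signal ratio of the Gapdh control probe sets (the Gapdh ratio) rises where labelled RNA is short of its 5' end. It was 13.8, 17.2, 1.45 and 4.68 in transgenic 7, 84, 11 and 17. It was between 1.03 and 1.15 in wildtype 26, 28 and 29. The value of wildtype 29 is an average over its arrays. They read 1.41 on the first, close to transgenic 11, and 0.927 on the second. The highest ratios among the transgenic animals were those of the females, so within that group sex and this ratio cannot be told apart. Every transgenic animal had a higher ratio than every wildtype animal, so the ratio also goes with the group. A model with group and log2 of the ratio can separate them only in part. Differences from that model are given below beside the main ones and do not stand as corrected values. As a check of the tissue, all 11 interfollicular epidermis markers measured lay above the level filter in every animal. The samples were whole skin, and fewer cells of a type and less RNA per cell cannot be told apart.

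The respiratory chain passes electrons from NADH (complex I) and succinate (complex II) through ubiquinone to complex III, then through cytochrome c to complex IV, where oxygen is reduced. Complexes I, III and IV pump protons, and ATP synthase uses the gradient. Most subunits are encoded in the nucleus. Several complex IV subunits exist as tissue isoforms: Cox6a2, Cox7a1 and Cox8b are the forms of heart and skeletal muscle, Cox7a1 and Cox8b are also known from brown fat, and Cox6a1, Cox7a2 and Cox8a are the forms of most other cells. Skin samples of the belly can include the thin skeletal muscle sheet under the dermis. NRF1 and GABP are transcription factors known to bind promoters of many of these nuclear genes.

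Promoter sequence is shown for a ubiquitous and a muscle-type complex IV gene, because these isoforms had different orders of animals, and for the motif windows of Sdha and Ndufa5, which are among the members with the smallest p. All 4 sequences are from RefSeq on GRCm38.p6 and lie on the minus strand. They are written 5′ to 3′ in the direction of the gene. Capitals mark complete matches to the motifs searched on both strands, GCGCA followed by any base and GCGC (NRF1), CCGGAAG (GABP and other ETS factors, CTTCCGG on the other strand) and CAGCTG (an E-box). The Cox6a1 stretch at chr5:115348959-115349208 and the Cox8b stretch at chr7:140900447-140900696 each cover the 250 bases before the annotated start. The Sdha window is chr13:74350319-74350348 and the Ndufa5 window is chr6:24527697-24527726.
Cox6a1: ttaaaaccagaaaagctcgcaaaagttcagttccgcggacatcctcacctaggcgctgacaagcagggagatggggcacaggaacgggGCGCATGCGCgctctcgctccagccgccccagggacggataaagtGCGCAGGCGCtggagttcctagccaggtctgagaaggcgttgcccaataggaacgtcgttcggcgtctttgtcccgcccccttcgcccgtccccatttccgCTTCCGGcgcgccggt
Cox8b: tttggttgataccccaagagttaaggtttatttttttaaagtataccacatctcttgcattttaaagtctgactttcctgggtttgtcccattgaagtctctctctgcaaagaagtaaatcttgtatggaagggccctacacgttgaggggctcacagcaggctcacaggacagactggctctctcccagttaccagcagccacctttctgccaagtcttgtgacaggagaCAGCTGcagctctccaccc
Sdha: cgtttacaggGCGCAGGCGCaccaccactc
Ndufa5: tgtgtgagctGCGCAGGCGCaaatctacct
The Cox6a1 stretch holds 2 matches to the NRF1 motif and 1 to the ETS motif, while that of Cox8b holds 1 E-box. RefSeq promoters were found for 59 of the 73 genes. The NRF1 motif was in 11 of the 59 (18.6%), against 5.19% of 27025 genes with such a sequence. The ETS motif was in 13 (22.0%, against 9.93% of all), and CAGCTG was in 5 (8.47%, against 18.3% of all). The motifs were chosen after the sequences had been seen and do not overlap each other in the printed stretches. A match is a string of letters and was not tested as a binding site.

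No respiratory chain gene differed between transgenic and wildtype skin at an adjusted p under 0.05. Of 148 probe sets, 139 passed the level filter, and 0 of these 139 were called by limma with Benjamini-Hochberg adjustment over all 27022 probe sets tested. The background was low too, with 4 probe sets called (0.0148%). The smallest adjusted p of a member probe set was 0.301. At an unadjusted p under 0.05, 12 of the 139 member probe sets were higher in transgenic skin (8.63%, against 3.77% of all probe sets) and 2 were lower (1.44%, against 7.93%). The groups did not overlap for 17 that were higher (12.2%, against 4.58% of all) and 5 that were lower (3.6%, against 6.71%). At an unadjusted p under 0.05 the first array of wildtype 29 alone gave 6 of 138 higher and 4 lower. The second alone gave 12 higher and 1 lower.

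With the most abundant probe set taken for each gene, 72 genes were tested. The mean was higher in transgenic animals for 49 of them (68.1%), against 56.3% of all 13559 genes. Cyclic loess normalization of the arrays gave 39 of 72 genes, and 56.8% of member probe sets in place of 66.9%. The median difference of the 72 was 0.10, against 0.05 over all genes, and the median size regardless of sign was 0.15 against 0.20. Unadjusted p was under 0.05 for 6 genes that were higher (8.33%, against 4.4% of all genes) and 1 that was lower (1.39%, against 4.6%). Groups were separate for 6 genes that were higher, Ndufa5, Ndufab1, Ndufs3, Ndufb9, Uqcrh and Cox6a1 (8.33%, against 5.16%). They were also separate for 3 that were lower, Ndufa3, Sdhc and Uqcrc2 (4.17%, against 3.89%). Of the 1800 genes with a level between the quartiles of the members (11.05 to 12.90), 70.7% had a higher mean. At an unadjusted p under 0.05, 5.78% of the 1800 were higher and 3.5% lower. Groups were separate for 6% that were higher and 2.78% that were lower. Separation here uses the average of the arrays of wildtype 29. On the first of these arrays alone, Ndufab1, Ndufb9 and Cox6a1 lay above the lowest transgenic animal. Ndufs3, Ndufb9 and Uqcrh fall outside the rule for named genes and were chosen after their values were seen.

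The arrays bound these differences more tightly than those of most genes. Respiratory chain probe sets are bright, and the limma fit lets variance depend on level. No share among genes of like level was computed, so the tighter bounds are not shown to be particular to these genes. For 49 of the 72 genes the 95% confidence interval lay within a 1.5-fold change in either direction (68.1%, against 29.5% of all genes). For 70 it lay within a 2-fold change (97.2%, against 74.3%). Apart from Ndufa4l2, the fold of transgenic over wildtype ran from 0.775 (Cox8a) to 1.38 (Ndufa6). The median SD between animals was 0.17 in transgenic and 0.12 in wildtype skin for the respiratory chain, and 0.28 in transgenic and 0.25 in wildtype skin over all genes.

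**Figure D1:**
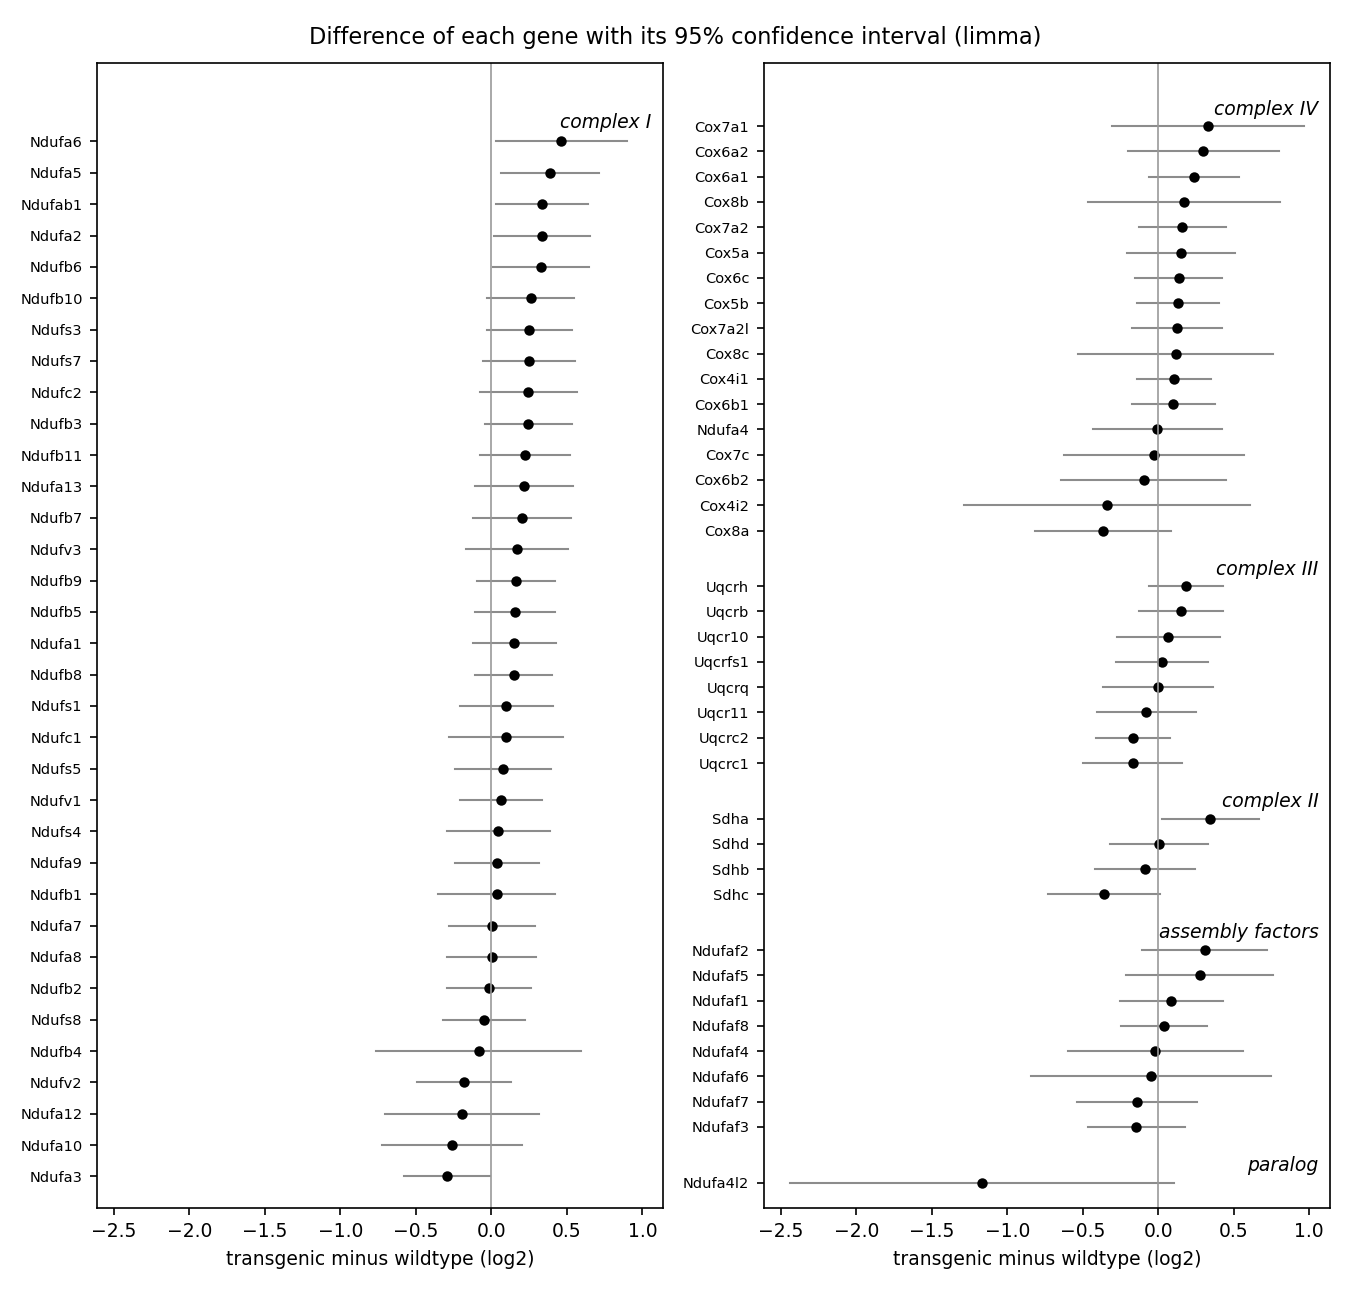
Difference of each gene, transgenic minus wildtype on the log2 scale, for the most abundant probe set, with its 95% confidence interval from limma (4 transgenic and 3 wildtype animals). Complex I runs from 0.46 (Ndufa6) to -0.29 (Ndufa3), and the intervals of Ndufa6, Ndufa5, Ndufab1, Ndufa2, Ndufb6, Sdha and Ndufa3 leave out 0 before adjustment for multiple tests.

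Levels averaged per complex, relative to the wildtype mean, overlapped between the groups for each complex. Complex I lay at 0.21, 0.12, -0.01 and 0.13 in transgenic 7, 84, 11 and 17, and at -0.01, 0.05 and -0.04 in wildtype 26, 28 and 29. The group means differed by 0.11, a fold of 1.08, with an SD of 0.09 between the 4 transgenic and 0.05 between the 3 wildtype animals. Transgenic 11 lay within the wildtype range and the other 3 transgenic animals, which had the higher Gapdh ratios, lay above it. With log2 of the Gapdh ratio in the model the complex I difference was 4e-04. The difference was -0.02 for complex II, 0.0015 for complex III (-0.089 with cyclic loess normalization) and 0.07 for complex IV. Complex II had the opposite sign with log2 of the Gapdh ratio in the model (0.060), without transgenic 7 and 84 (0.036) and as a mean over probe sets (0.040). No p is given for these means, because the genes were chosen with earlier results of these data known.

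**Figure D2:**
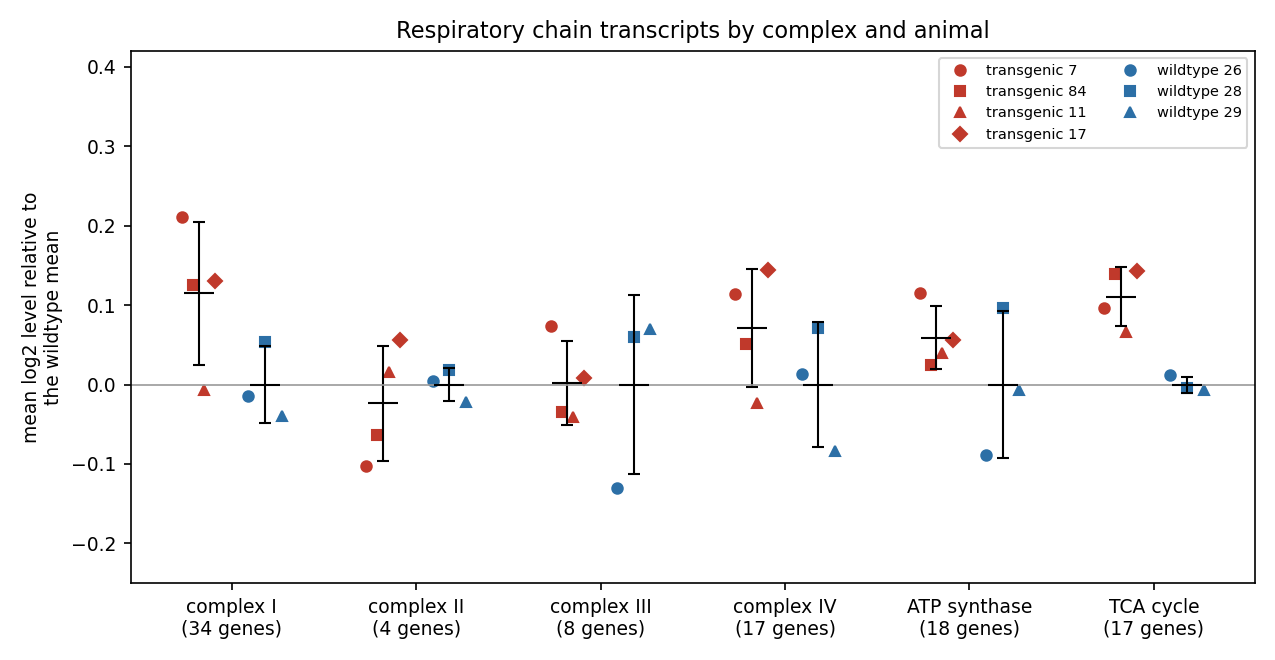
Mean log2 level of the tested genes of each set in each animal, relative to the wildtype mean of the same genes. Points are animals, and bars are group means with SD (n = 4 transgenic, n = 3 wildtype). Complex I averages 0.11 higher in transgenic animals, with transgenic 11 inside the wildtype range.

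Complex I takes electrons from NADH through a peripheral arm that reaches into the matrix and pumps protons through a membrane arm. Of its 34 genes, 27 had a higher mean in transgenic skin (79.4%, against 56.3% of all genes) and the median difference was 0.15. Among all 1800 genes with a level between the quartiles of the members (11.05 to 12.90), 70.7% had a higher mean and the median was 0.11. The mean difference of complex I was 4e-04 with log2 of the Gapdh ratio in the model. The 14 genes of the peripheral arm averaged 0.12 higher and the 19 of the membrane arm 0.10 higher. The remaining gene, Ndufab1, encodes the mitochondrial acyl carrier protein, which sits in the complex and also serves fatty acid synthesis. Accessory subunits surround the catalytic core and make up most of the genes.

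Ndufa5, an accessory subunit of the peripheral arm, measured 12.38, 12.29, 11.93 and 12.15 in transgenic 7, 84, 11 and 17, against 11.91, 11.75 and 11.74 in wildtype 26, 28 and 29. Every transgenic animal lay above every wildtype one, but transgenic 11 and wildtype 26 were almost level. The difference was 0.39 (SE 0.14, limma unadjusted p = 0.0245, adjusted p = 0.375). Its other probe set gave 0.34, also without overlap, but there the first array of wildtype 29 alone read 11.49, above transgenic 11 at 11.43. Ndufab1 measured 12.57, 12.51, 12.19 and 12.39 in transgenic 7, 84, 11 and 17, against 12.00, 12.09 and 12.16 in wildtype 26, 28 and 29, again without overlap and again with transgenic 11 nearest to wildtype. The first array of wildtype 29 alone read 12.27 for Ndufab1, above transgenic 11. The difference was 0.34 (limma adjusted p = 0.398), while a dimmer probe set of Ndufab1 gave -0.53.

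Ndufa6, an accessory subunit of the LYR family that binds the acyl carrier protein, measured 12.80, 12.59, 12.08 and 12.59 in transgenic 7, 84, 11 and 17. In wildtype 26, 28 and 29 it measured 12.29, 11.96 and 11.90. Transgenic 11 fell between wildtype 26 and 28, so the groups overlapped, although the mean difference of 0.46 was the largest of complexes I to IV (95% interval 0.03 to 0.90, limma adjusted p = 0.407). Ndufa2, in the peripheral arm, measured 12.71, 12.56, 12.52 and 12.77 in transgenic 7, 84, 11 and 17, against 12.52, 12.27 and 12.12 in wildtype 26, 28 and 29 (difference 0.34, adjusted p = 0.409). Ndufb6, in the membrane arm, measured 13.30, 13.34, 12.90 and 13.17 in transgenic 7, 84, 11 and 17, against 12.81, 12.98 and 12.76 in wildtype 26, 28 and 29 (difference 0.33, adjusted p = 0.417). In both, 1 wildtype male lay above transgenic 11, the lowest transgenic animal.

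Ndufa3, a small membrane-arm subunit, was the complex I gene with the lowest difference. It measured 13.00, 12.87, 13.17 and 13.02 in transgenic 7, 84, 11 and 17, against 13.18, 13.45 and 13.29 in wildtype 26, 28 and 29. All transgenic animals lay below all wildtype animals, by 0.01 between the closest (transgenic 11 and wildtype 26). The difference was -0.29 (SE 0.12, limma unadjusted p = 0.0430, adjusted p = 0.416), and the second bright probe set gave -0.36, also without overlap.

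Core subunits carry the flavin and iron-sulfur clusters. Ndufs1, the largest iron-sulfur subunit, differed by 0.10, and Ndufv1, which binds NADH and flavin, by 0.06. Ndufs8 differed by -0.05 and Ndufs7 by 0.25, both of them iron-sulfur subunits near the ubiquinone site. Limma adjusted p lay between 0.495 and 0.900 for these 4 genes. Ndufv2, another iron-sulfur subunit, differed between its probe sets. The most abundant gave -0.18, and 2 others gave 0.23 and 0.50, both without overlap once the arrays of wildtype 29 were averaged. The first array of wildtype 29 alone lay above transgenic 17 on the probe set with 0.50 (11.80 against 11.58). On the one with 0.23 it lay above transgenic 11 (12.49 against 12.40). The 0.50 had the smallest p of any complex I probe set (limma unadjusted p = 0.00793, adjusted p = 0.322). Ndufv2 falls outside the rule for named genes and was chosen after its values were seen.

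Complex II, succinate dehydrogenase, is shared with the TCA cycle and has 4 nuclear subunits. Its catalytic flavoprotein Sdha measured 12.45, 12.54, 12.12 and 12.48 in transgenic 7, 84, 11 and 17, against 12.18, 12.00 and 11.98 in wildtype 26, 28 and 29. Transgenic 11 lay below wildtype 26 and the other 3 transgenic animals lay above all wildtype animals (difference 0.34, 95% interval 0.02 to 0.67, limma adjusted p = 0.408). Sdhc, a membrane anchor that helps to bind heme, went the other way with 10.95, 10.70, 11.20 and 11.23 in transgenic 7, 84, 11 and 17, against 11.46, 11.36 and 11.32 in wildtype 26, 28 and 29. All transgenic animals were below all wildtype animals, with the females lowest (difference -0.36, adjusted p = 0.439). The second array of wildtype 29 alone read 11.24, barely above transgenic 17. The other tested probe set of Sdhc gave -0.53, with overlap, and there transgenic 7 was the highest transgenic animal.

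The iron-sulfur subunit Sdhb measured 12.53, 12.62, 12.73 and 12.52 in transgenic 7, 84, 11 and 17, against 12.39, 12.86 and 12.80 in wildtype 26, 28 and 29, a difference of -0.09 with full overlap. Sdhd, the second membrane anchor, gave different pictures in its 2 tested probe sets. The most abundant measured 10.54, 10.78, 10.91 and 10.89 in transgenic 7, 84, 11 and 17, against 10.88, 10.75 and 10.70 in wildtype 26, 28 and 29 (difference 0.0049). The dimmer one measured 9.54, 9.86, 9.53 and 9.66 in transgenic 7, 84, 11 and 17, against 9.20, 8.61 and 9.02 in wildtype 26, 28 and 29. It was separate between groups with a difference of 0.71, the smallest p of all member probe sets (limma unadjusted p = 0.00439, adjusted p = 0.301). On the repeat arrays of 1 wildtype animal the most abundant Sdhd probe set moved by 0.14.

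Complex III moves electrons from ubiquinol to cytochrome c. Of its 8 genes, 4 had a higher and 4 a lower mean in transgenic skin, and the median difference was 0.01. The Rieske iron-sulfur protein Uqcrfs1 measured 12.32, 12.30, 11.98 and 12.10 in transgenic 7, 84, 11 and 17, against 12.05, 12.24 and 12.15 in wildtype 26, 28 and 29 (difference 0.03). The core proteins, which are related to mitochondrial processing peptidases, were both on the lower side. Uqcrc1 measured 11.84, 12.01, 12.26 and 12.07 in transgenic 7, 84, 11 and 17, against 12.04, 12.24 and 12.36 in wildtype 26, 28 and 29 (difference -0.17, limma adjusted p = 0.668).

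Uqcrc2 had the smallest SD within the transgenic group of the 72 genes, 0.02. It measured 12.60, 12.65, 12.60 and 12.60 in transgenic 7, 84, 11 and 17, against 12.69, 12.78 and 12.88 in wildtype 26, 28 and 29. The groups did not overlap, yet the difference was only -0.17 (95% interval -0.41 to 0.08, limma adjusted p = 0.570), and the second probe set gave 0.16 with overlap. The hinge protein gene Uqcrh, which holds cytochrome c near the complex, differed by 0.18 without overlap (adjusted p = 0.527). Its second probe set gave 0.12 with overlap.

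Complex IV, cytochrome c oxidase, had 17 tested genes, of which 12 had a higher mean in transgenic skin (70.6%, against 56.3% of all genes and 70.7% of the 1800 genes of like level). At an unadjusted p under 0.05 there were 0, and only Cox6a1 of the 17 was separate between groups (5.88%, against 9.06% of all genes). Among the subunits made in most cells, 7 of 10 were higher on average, and Cox4i1, Cox5a, Cox5b, Cox6b1, Cox6c and Cox7a2 differed by 0.10 to 0.16 with limma adjusted p between 0.645 and 0.774, but with cyclic loess normalization Cox4i1, Cox5b, Cox6b1 and Cox6c lay below 0. With log2 of the Gapdh ratio in the model Cox5a (-0.13), Cox5b (-0.031), Cox6b1 (-0.13) and Cox7a2 (-0.056) lay below 0. Cox4i1 and Cox5a form an early module of the complex and Cox5b binds zinc. Cox7a2l, a factor that ties complexes III and IV into supercomplexes, differed by 0.12, and Ndufa4, first assigned to complex I, by -0.01. Cox7c differed by -0.03 on a dim probe set.

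Cox6a1, the gene with 2 NRF1 motif matches before its start, measured 14.60, 14.44, 14.20 and 14.19 in transgenic 7, 84, 11 and 17, against 14.06, 14.16 and 14.14 in wildtype 26, 28 and 29. The females carried most of the difference of 0.24, and both males lay within 0.05 of wildtype 28 (limma adjusted p = 0.503). The first array of wildtype 29 alone read 14.22, above both males. This difference was -0.0092 with log2 of the Gapdh ratio in the model. The other tested probe set of Cox6a1 gave -0.10, with overlap. Cox8a measured 10.97, 11.20, 11.74 and 11.59 in transgenic 7, 84, 11 and 17, against 11.60, 11.77 and 11.85 in wildtype 26, 28 and 29. Here the females were the lowest, and the males lay in or beside the wildtype range (difference -0.37, adjusted p = 0.498). Its second probe set gave -0.38. The difference of the first was 0.12 with log2 of the Gapdh ratio in the model.

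The muscle-type isoforms varied more between animals than between groups. Cox6a2 measured 11.56, 11.37, 10.92 and 11.57 in transgenic 7, 84, 11 and 17, against 11.25, 11.27 and 10.65 in wildtype 26, 28 and 29 (difference 0.30, 95% interval -0.20 to 0.80). Cox7a1 measured 10.97, 10.36, 10.08 and 11.03 in transgenic 7, 84, 11 and 17, against 10.70, 10.21 and 9.92 in wildtype 26, 28 and 29 (difference 0.33, interval -0.31 to 0.97). Wildtype 29 and transgenic 11 had the lowest levels of both genes, and transgenic 7 and 17 the highest.

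Cox8b, the gene with an E-box and no NRF1 motif match, followed the same order at its ends, with 11.35, 10.82, 10.65 and 11.57 in transgenic 7, 84, 11 and 17, against 11.29, 11.07 and 10.42 in wildtype 26, 28 and 29 (difference 0.17, interval -0.47 to 0.81). The mean of these 3 genes was 0.53, 0.10, -0.21 and 0.64 in transgenic 7, 84, 11 and 17, against 0.33, 0.10 and -0.42 in wildtype 26, 28 and 29. Skeletal muscle markers had a similar order of animals, but so did a list from another tissue. The mean of 30 of 30 measured muscle genes, all above the level filter in every animal, was 0.41, 0.32, -0.04 and 0.41 in transgenic 7, 84, 11 and 17, against 0.33, 0.08 and -0.41 in wildtype 26, 28 and 29. Their summed signal ranged from 203224 to 295085 in transgenic and from 166349 to 268024 in wildtype animals. Over a narrower range, the 11 interfollicular epidermis genes averaged 0.11, 0.07, -0.16 and 0.21 in transgenic 7, 84, 11 and 17. In wildtype 26, 28 and 29 they averaged 0.19, -0.003 and -0.19. Wildtype 29 and transgenic 11 were again lowest, so the order was not particular to muscle.

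With the muscle mean as a covariate the difference was 0.0103 for Cox6a2, -0.02 for Cox7a1 and -0.20 for Cox8b. A less abundant probe set of Cox6a2 had a larger difference of 0.99, with overlap (limma adjusted p = 0.356). Of 10 brown fat markers measured, 6 lay above the level filter in all animals and 3 lay below it in all. Ucp1, the uncoupling protein that defines brown fat, stayed between 4.93 and 5.34 in transgenic and between 4.98 and 5.34 in wildtype animals, below the level filter of 6.45. Slc27a2 and Otop1 were below the filter in all animals as well, and the mean of the 7 brown fat genes tested differed by 9e-04. Their summed signal ranged from 9297 to 20049 in transgenic and from 11673 to 21002 in wildtype animals.

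**Figure D3:**
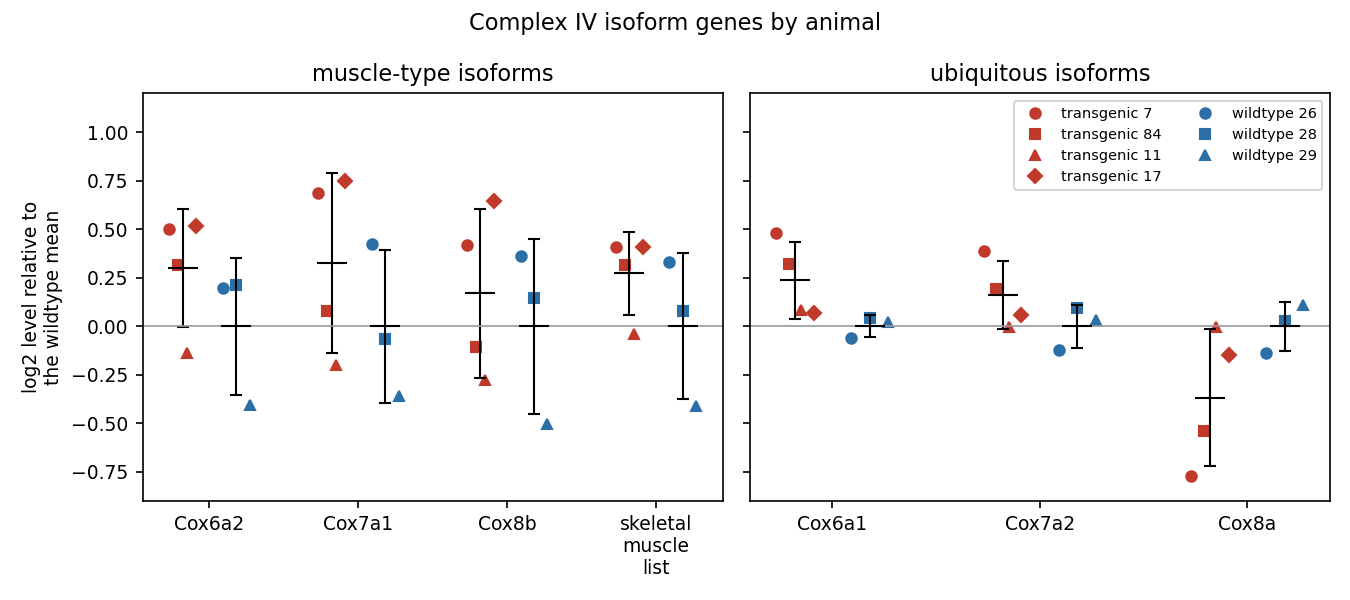
Log2 level relative to the wildtype mean for muscle-type (left) and ubiquitous (right) isoform genes of complex IV, with the mean of the skeletal muscle list. Points are animals, and bars are group means with SD (n = 4 transgenic, n = 3 wildtype). Transgenic 7 and 17 are the highest and wildtype 29 the lowest for each muscle-type gene, while Cox8a is lowest in transgenic 7 and 84.

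Other tissue isoforms showed no calls either. Cox4i2, the lung-type form of subunit 4, measured 5.77, 5.92, 7.39 and 6.58 in transgenic 7, 84, 11 and 17, against 7.06, 6.54 and 6.67 in wildtype 26, 28 and 29 (difference -0.34, limma adjusted p = 0.775). The females of the transgenic group fell below the level filter. The Cox4i2 difference was 0.77 with log2 of the Gapdh ratio in the model and 0.23 without transgenic 7 and 84. Cox6b2, known from testis, differed by -0.10. Cox8c, also a testis form, differed by 0.12 on its most abundant probe set and by -0.64 on the other, and it falls outside the rule for named genes. Cox7b2, another testis form, did not pass the filter and was not tested.

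The 8 complex I assembly factors were evenly divided, 4 higher and 4 lower, with differences from -0.15 (Ndufaf3) to 0.31 (Ndufaf2) and no unadjusted p under 0.05. Ndufa4l2, a paralog of Ndufa4 known as a target of hypoxia-inducible factor, had the lowest difference of all members. It measured 8.15, 7.84, 9.998 and 9.81 in transgenic 7, 84, 11 and 17, against 10.72, 10.12 and 9.50 in wildtype 26, 28 and 29. The transgenic females lay well below all other animals, and the transgenic males lay within the wildtype range (difference -1.17, 95% interval -2.44 to 0.10, adjusted p = 0.458). These 2 females were the animals with the highest Gapdh ratios. With log2 of the Gapdh ratio in the model the difference was 0.42. Ndufaf2, Ndufaf3 and Ndufa4l2 fall outside the rule for named genes and were chosen after their values were seen.

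A few animals held most of the extreme values. Transgenic 7 was the highest of the 7 animals for 31 of 72 genes, and for 17 of the 34 complex I genes. Wildtype 29 was the lowest for 24 genes and wildtype 26 for 20. Complex I averaged 0.17 in transgenic 7 and 84 and 0.06 in transgenic 11 and 17, both relative to the wildtype mean. For complex II the same averages were -0.08 and 0.04. With log2 of the Gapdh ratio in the model 37 of 72 genes lay above 0. Without transgenic 7 and 84 the complex I difference was 0.06, and 42 of 72 genes lay above 0.

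The arrays of wildtype 29 show how far 2 measurements of 1 animal lie apart. The sample titles do not say whether both used the same RNA or piece of skin. Between the second and the first array the 72 genes moved by a median of -0.16, from -0.54 to 0.415, while the median over all 27022 probe sets was 0.03. Complex I lay at -0.12 on the second array and at 0.04 on the first, relative to the wildtype mean. That gap was wider than the 0.11 between the groups, but the 2 sizes are not alike. The gap is between single arrays, while the 0.11 is between means of 4 and 3 animals, which vary less.

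**Figure D4:**
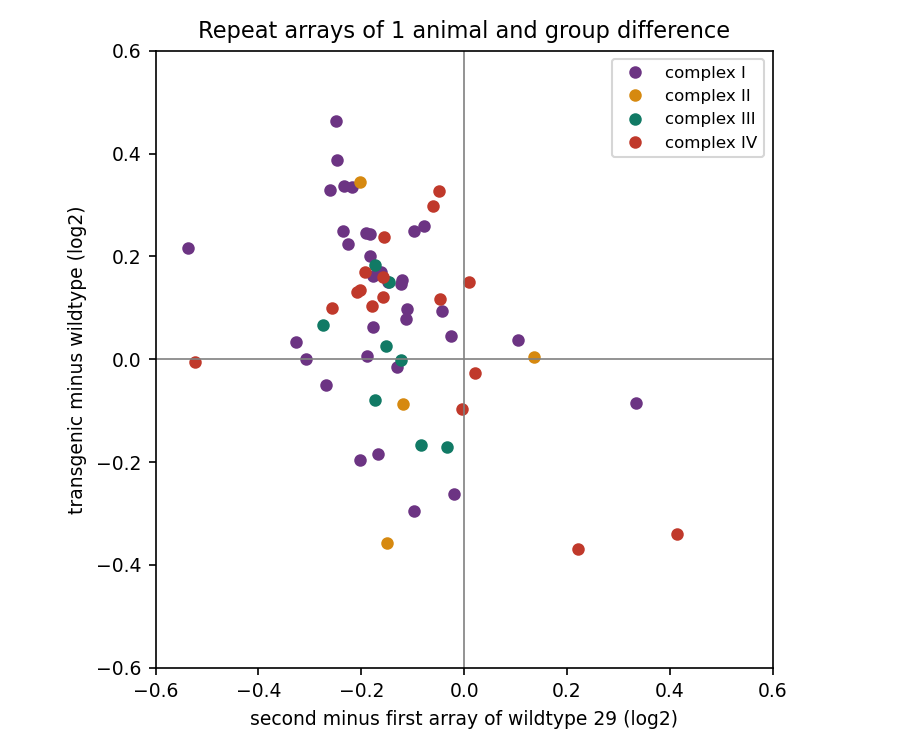
Genes of complexes I to IV, with the change between the 2 arrays of wildtype 29 (second minus first) on the horizontal axis and the transgenic minus wildtype difference on the vertical axis, both on the log2 scale. Each point is a gene. Most genes lie left of 0, and the spread along both axes is of the same order. The horizontal axis compares single arrays and the vertical axis means over animals, so their sizes are not alike.

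Respiratory chain probe sets are bright, and bright probe sets as a whole lay above 0. The 1800 genes between the quartiles of the members' levels gave 70.7% above 0 and a median of 0.11, and the 72 members gave 68.1% and 0.10. No test was made of this likeness.

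**Figure D5:**
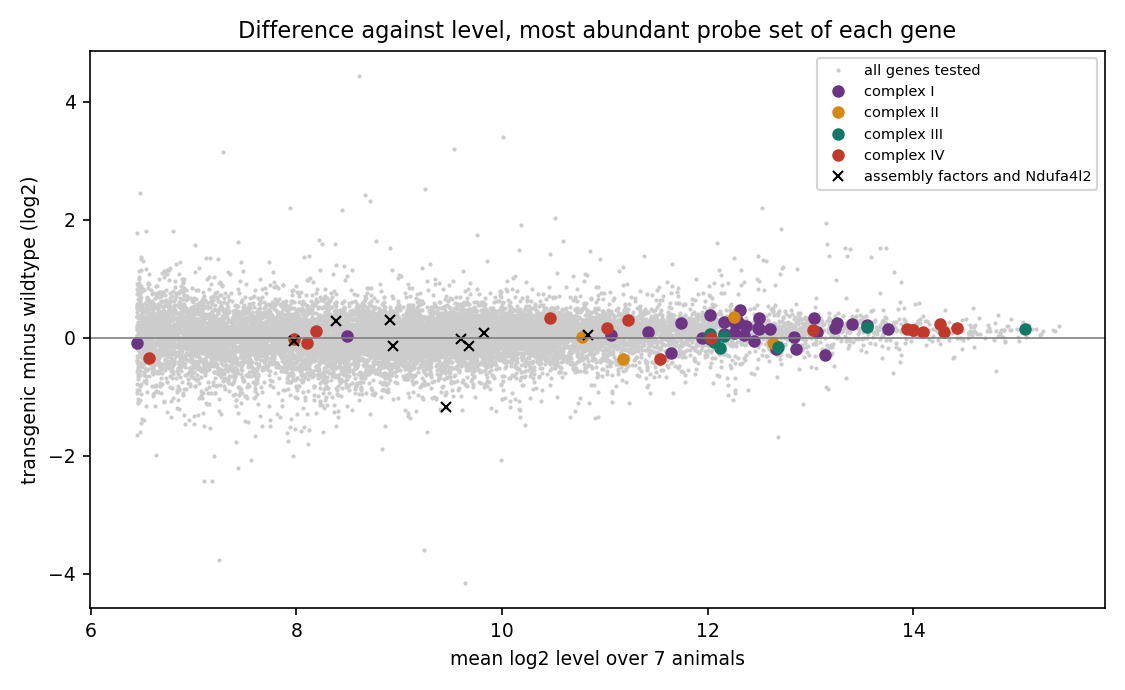
Transgenic minus wildtype difference against mean log2 level over the 7 animals for the most abundant probe set of each of 13559 genes (grey), with the respiratory chain genes in colour. Most members lie at high levels and within 0.5 of 0, and Ndufa4l2 lies at -1.17.

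Of the 72 genes, 41 had at least 2 tested probe sets. In 20 of these the probe sets gave differences of opposite sign, with a median span of 0.21 between the lowest and highest, and in 0 of them were opposite signs more than 1 apart. Probe sets whose names end in s_at or x_at can share sequence with other transcripts. Levels of the genes read by them (Ndufab1, Ndufa2 and Ndufa3 among those above) are uncertain in that respect. The same holds for the less abundant probe sets that gave 0.71 for Sdhd, 0.50 for Ndufv2 and 0.99 for Cox6a2, whose names end in x_at.

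Other mitochondrial genes, taken from lists, were equally without calls. Of 18 ATP synthase genes 12 were higher on average (66.7%, against 56.3% of all genes and 70.7% of the 1800 genes of like level). In each direction 1 had an unadjusted p under 0.05. Without overlap, 5 were higher (27.8%, against 5.16% of all genes and 6% of the 1800). This separation uses the average of the arrays of wildtype 29. On the first array alone, Atp5l lay above transgenic 11 (13.28 against 13.27). Atp5l falls outside the rule for named genes and was chosen after its values were seen. Atp5pb, of the peripheral stalk, differed by 0.31 (limma adjusted p = 0.390). Atp5g2, a source of the membrane ring subunit c, measured 11.30, 11.10, 12.74 and 11.98 in transgenic 7, 84, 11 and 17, against 12.61, 12.93 and 12.74 in wildtype 26, 28 and 29 (difference -0.98, adjusted p = 0.370), lowest in the females with the high Gapdh ratios. With log2 of the Gapdh ratio in the model it was 0.17.

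The mean log2 level of the TCA cycle enzymes did not overlap between groups. It lay at 0.10, 0.14, 0.07 and 0.14 in transgenic 7, 84, 11 and 17, against 0.01, -0.0048 and -0.0068 in wildtype 26, 28 and 29. The means of the other gene lists overlapped. Of 17 TCA cycle genes 14 were higher (82.4%, against 56.3% of all genes and 70.7% of the 1800 genes of like level). An unadjusted limma p under 0.05 was found for 0 of them. Pdhb, of pyruvate dehydrogenase, differed by 0.27 and Mdh2, malate dehydrogenase, by 0.25. The summed signal was 67625 to 75777 in transgenic and 63334 to 66804 in wildtype animals. Summed signal was separate as well for electron carriers and entry enzymes (39462 to 44241 in transgenic, 38566 to 39422 in wildtype animals) and for further assembly factors (49715 to 55887 in transgenic, 48923 to 49615 in wildtype animals), whose log2 means overlapped.

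Among 15 electron carriers and entry enzymes 10 were higher (66.7%, against 56.3% of all genes) and the mean differed by 0.07. Etfa, of the electron transfer flavoprotein, lay at 0.34 (adjusted p = 0.371) and the ubiquinone gene Coq4 at -0.58 (adjusted p = 0.447). Of 39 further assembly factors 22 were higher (56.4%, near the share of all genes). Coa4 differed by 0.73 and Cox20 by 0.39 (adjusted p = 0.409 and 0.393), both of them complex IV assembly factors.

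Regulators of mitochondrial gene expression held the smallest p of these lists. Of 19 genes, 1 was higher (5.26%, against 4.4% of all genes) and 3 were lower (15.8%, against 4.6%) at an unadjusted p under 0.05. Tfb2m, a mitochondrial transcription factor, measured 8.24, 8.05, 9.43 and 8.81 in transgenic 7, 84, 11 and 17, against 9.88, 9.89 and 9.85 in wildtype 26, 28 and 29. All transgenic animals were lower, the females most (difference -1.24, limma adjusted p = 0.301, and -0.29 with log2 of the Gapdh ratio in the model). Esrra, a nuclear receptor that activates oxidative metabolism genes, was separate in the same direction (difference -0.67, adjusted p = 0.353).

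Sex was tested as a modifier of the group difference. No probe set was called for the interaction of group and sex (0% of 27022), and 772 had an unadjusted p under 0.05 (2.86%), 4 of them among the 139 members. The term rests on the single wildtype female. With sex as a covariate complex I differed by 0.11 and 47 of 72 genes lay above 0.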

How the data were processed

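Total RNA of belly skin was labelled with the Affymetrix one-cycle kit, per the labels, and hybridised to expression arrays. The deposited table holds linear signal intensity, which the authors computed with MAS5, per the submitters' processing notes. The version is not given in the sources used here. Each array had a mean of 500.003 after leaving out 2% of values at either end. No total of reads exists for arrays, and their number (8) limits the precision. Gene symbols came from the array annotation, and promoters from RefSeq GRCm38.p6.

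The analysis used log2(intensity + 21.8), the 20th percentile of all values, with the arrays of wildtype 29 averaged. Probe sets with a mean under the 40th percentile (6.45) were left out. The group comparison used lmFit and eBayes with a trend (limma 3.58.1, R 4.3.3, 2-sided), with Benjamini-Hochberg adjustment over 27022 probe sets and a threshold of 0.05. Complex levels are means over genes of log2 minus the wildtype mean, for the most abundant probe set, with no test. The fit was checked on simulated data. Members, 15 gene lists and tests were chosen with earlier results of these data known.

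Named genes were members with an unadjusted p under 0.05 (up to 10 in each direction by the smallest p), a fixed set of catalytic and isoform subunits, members whose probe sets differed in sign by over 1, and up to 2 genes with the smallest p of each list. Alternatives covered normalization, pseudocount, level filter, variance model, covariates, arrays of wildtype 29, the choice of probe set and animals left out. Figures used Python 3.11.15 and matplotlib 3.10.9.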

Additional observations from a re-analysis of the deposited data

Results flagged for a closer look

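Each gene named was examined for an animal far from the others of its group, among the 4 transgenic animals only, since 3 wildtype animals are too few. Chance flags about 1 in 20 groups, and 2 genes were flagged. With about 60 genes named, that is no more than chance alone would give. Uqcrc2, a core protein of complex III, was highest in transgenic 84 at 12.6524, with the next animal at 12.60 and the lowest also at 12.60, a gap that is small because the other 3 animals were nearly equal. The hair keratin gene Krt36 was lowest in transgenic 17 at 7.0411, against 8.85 in the next animal and 9.10 in the highest. Hair shaft keratins as a list were also lowest in transgenic 17 within that group.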

How the results depend on the processing

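No member was called in any of the 23 alternatives, and the smallest adjusted p of a member was 0.0780, without transgenic 11. The number of probe sets called over the whole array was 4 as reported, 10 with the pseudocount of 87.2, 2 with the filter at the 60th percentile, 11 with sex and 0 with log2 of the Gapdh ratio in the model. With the Gapdh ratio, 851 had an unadjusted p under 0.05. It was 37 with the hair keratin mean in the model, 9 with the second array of wildtype 29 alone and 44 with both of its arrays as separate samples. Leaving out 1 animal gave 0 (without wildtype 28) to 280 (without transgenic 11). The complex I difference was 4e-04 with the Gapdh ratio and lay between 0.041 and 0.16 under the other alternatives. Complex II was 0.060 with the Gapdh ratio, 0.036 without transgenic 7 and 84 and 0.040 as a mean over probe sets, and complex III was -0.089 with cyclic loess. Of the 72 genes, 39 lay above 0 with cyclic loess and 48 with quantile normalization, against 49 as reported.

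Single gene differences kept direction and side of the threshold in 1308 of 1378 recomputations over 60 genes. Tfb2m was called without transgenic 11 (adjusted p = 0.0354) and Lep with the hair keratin mean in the model (adjusted p = 0.0479). In 68 the sign turned, for 28 genes, and none of these was called in the limma fit reported. With log2 of the Gapdh ratio in the model, turned differences were Ndufs1 -0.14, Ndufs7 -0.0024, Ndufa4 0.12, Sdhb 0.0101, Uqcrfs1 -0.22, Uqcrc1 0.064, Cox4i2 0.77, Cox5a -0.13, Cox5b -0.031, Cox6a1 -0.0092, Cox6a2 -0.0299, Cox6b1 -0.13, Cox6b2 0.23, Cox7a2 -0.056, Cox7a2l -0.039, Cox8a 0.12, Cox8b -0.019, Atp5g2 0.17, Krt15 -0.069, C1qa 0.21 and Ndufa4l2 0.42. With both arrays of wildtype 29 as separate samples, the turned difference was Cox7c 0.0025. With cyclic loess normalization, turned differences were Ndufv1 -0.0083, Sdhd -0.018, Uqcrfs1 -0.045, Cox4i1 -0.034, Cox5b -0.0033, Cox6b1 -0.045, Cox6c -3e-04 and Cox7c 0.064. With quantile normalization, turned differences were Sdhd -0.008, Uqcrfs1 -0.033, Cox6b2 0.018 and Cox7c 0.064. With the second array of wildtype 29 alone, turned differences were Ndufa4 0.082 and Sdhd -0.018. With sex as a covariate, the turned difference was Uqcrfs1 -7e-04. With the skeletal muscle mean as a covariate, turned differences were Ndufs8 0.024, Ndufa4 0.079, Sdhb 0.038, Uqcrfs1 -0.0045, Cox6b2 0.13, Cox7a1 -0.025 and Cox8b -0.20. Without transgenic 7 and 84, turned differences were Ndufs1 -0.035, Ndufa4 0.064, Uqcrfs1 -0.11, Cox4i2 0.23, Cox5a -0.024, Cox6b1 -0.028, Cox6b2 0.041 and Cox7c 0.048. Leaving out 1 animal gave ranges of -0.29 to 0.021 for Cox6b2, -0.18 to 0.18 for Cox7c, -0.083 to 0.35 for Cox8b, -0.18 to 0.11 for Ndufa4, -0.23 to 0.0014 for Sdhb, -0.037 to 0.083 for Sdhd and -0.023 to 0.092 for Uqcrfs1. The causes were not tested.

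With 7 animals, the 95% interval of a member gene reached a median of 0.32 to either side. Signal near the array's floor limits Cox4i2 and Ndufb4. No paired analysis was possible because the groups share no replicate numbers.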

Other observations

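Marker lists of other cells in the skin gave wider differences between animals than the respiratory chain, and 0 of their genes were called by limma. White adipocyte genes averaged 0.05, 0.52, 0.37 and 0.55 in transgenic 7, 84, 11 and 17, against 0.29, -0.17 and -0.12 in wildtype 26, 28 and 29. At an unadjusted p under 0.05, 5 of 12 were higher (41.7%, against 4.4% of all genes) and 1 was lower (8.33%, against 4.6%). Their summed signal was 81759 to 107176 in transgenic and 66029 to 76444 in wildtype animals. Lep, the adipocyte hormone leptin, measured 9.34, 10.95, 9.98 and 11.04 in transgenic 7, 84, 11 and 17, against 8.55, 7.75 and 7.13 in wildtype 26, 28 and 29 (difference 2.52, limma adjusted p = 0.217). Lpl, lipoprotein lipase, was also separate between groups, with a difference of 0.46 (adjusted p = 0.301).

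Hair shaft keratins ran from -1.95 to 1.40 in transgenic and from -4.21 to 2.19 in wildtype animals, relative to the wildtype mean, with wildtype 26 lowest. Respiratory chain genes did not share that range, with means from -0.02 to 0.11 in transgenic and from -0.04 to 0.06 in wildtype animals. Epidermal genes differed by 0.06, fibroblast genes by -0.02, endothelial genes by -0.07 and macrophage genes by 0.0040, all with overlap. Within the fibroblast list Dpt (dermatopontin) differed by 0.59 and Fbln1 (fibulin) by -1.36. The macrophage genes C1qa, of complement, and Cd163, a scavenger receptor, differed by -2.07 and 0.86. C1qa measured 7.93, 7.80, 10.93 and 9.73 in transgenic 7, 84, 11 and 17, against 11.90, 11.00 and 10.60 in wildtype 26, 28 and 29. It was lowest in the transgenic females with the high Gapdh ratios, and with log2 of the Gapdh ratio in the model its difference was 0.21.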
